A study of Mus musculus with 16 samples.

Results

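The comparison described here is that of Perk wild-type mouse livers perfused with tBuHQ against other Perk wild-type livers perfused without it, in RNA that was not fractionated on a gradient. It rests on 4 of the 16 arrays of the series, 2 with tBuHQ and 2 without, which were chosen by the genotype, treatment and fraction named in the sample titles. All 34958 of 45101 probe sets that the annotation pairs with 1 gene symbol belong to it. They stand for 18193 genes, of which 12153 had a mean signal above the 40th percentile and were tested.

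The mice were 3 to 6 months old, and the wild-type animals (Perk+/+) were littermates of mice in which an albumin-driven Cre had deleted Perk from liver (Alb/Cre Perk-/-). The untreated group received perfusion buffer in a single pass and the treated group the same perfusion with tBuHQ, and the buffer of both held 0.1 mM CaCl2. tBuHQ is a di-tert-butylhydroquinone, and the labels name different isomers of it in different places. The sources used here give neither the dose nor the duration. Each array took RNA pooled from 2 livers, from a detergent-containing supernatant of the homogenate. The p-values below therefore measure the spread between such pools. In this whole tissue, fewer cells of a type and less RNA per cell cannot be told apart.

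tBuHQ blocks the pump that loads calcium into the endoplasmic reticulum (ER). Chaperones in the ER need calcium, and unfolded proteins there wake the sensors PERK, IRE1 and ATF6, which together drive the unfolded protein response. PERK phosphorylates the initiation factor eIF2, which slows translation in general while the transcription factors ATF4 and CHOP are made, a program called the integrated stress response (ISR). The liver secretes most plasma proteins, so its hepatocytes have an extensive ER.

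Treatment was taken from the sample titles. The authors' deposited table of z scores names it the other way round: by value, 16 of its 16 columns matched an array whose title gives the opposite treatment, with a largest residual of 0.00368 on the log10 scale. By those column names each rise below would be a fall. Cells of the liver were present as the label says: the summed signal of 5 hepatocyte markers (Alb, Apoa1, Ttr, Cps1 and Tat) was 67033 and 68232 without and 85754 and 86672 with tBuHQ, while 6 lymphocyte markers summed to between 24.8 and 59.2. Eif2ak3, the gene of PERK, read 88.6 and 118 without and 131 and 130 with tBuHQ, and it read 27.2 to 49.2 on the 4 knockout arrays.

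One property of the arrays bears on every result. Among the 8 unfractionated arrays, 3 stood apart: the untreated wild-type pair and 1 knockout array with tBuHQ, the first. They correlated at 0.973 to 0.975 with each other and at 0.948 to 0.964 with the other 5, and the other 5 correlated at 0.961 to 0.971 among themselves. Their 75th percentile signal was 105 to 114, against 83.7 to 88.9. The Gapdh ratio of 3' to 5' probe sets, a measure of RNA integrity, was 0.735 to 0.824 on the 4 wild-type unfractionated arrays. The part that this split has in the results was not tested, and values on the knockout arrays are therefore given beside some of them. For a gene without such values the untreated knockout arrays may also have read near the treated level, as at most of the fallen genes.

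At an adjusted p under 0.05 in limma, 520 of 12153 genes (4.28%) were called. Of these, 50 rose (0.411% of the tested genes) and 470 fell (3.87%), so 90.4% of the calls were decreases. The median log2 difference, tBuHQ minus untreated, was 1.18 over the risen genes, -1.34 over the fallen ones and -0.03 over all tested genes. For each called gene both tBuHQ arrays lay on one side of both untreated arrays. The same arrays made the calls and the share over all tested genes was not counted, so this is no separate evidence. All these log2 differences are of signal + 16, which understates the change of dim genes. Counts of called members in the gene lists below are to be read against 0.411% risen and 3.87% fallen. A single fall in a list of 30 or 38 genes is near the latter. Counts of positive and negative differences are to be read against 47.9% positive over all tested genes.

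The clearest rise was that of Cyp2c37, a liver cytochrome P450 of drug and fatty acid metabolism. It read 31.8 and 9.34 on the untreated arrays and 1883 and 1708 on the tBuHQ arrays. Without tBuHQ it was near the 15.1 reached by absent spike-in RNAs, so the rise is given as at least 81.9-fold (limma adjusted p = 0.00024). On the knockout arrays it stayed between 25.7 and 54.2 whether or not tBuHQ was given. Cyp2c37 belongs to the 21 tested targets of the nuclear receptors CAR and PXR, which induce drug metabolism, and Cyp2c55 was the other member that rose (1.19 ± 0.25, SE, adjusted p = 0.0237). None of the 21 fell, and their median was 0.28, which turned to -0.03 after quantile normalization over all arrays. No member of the 27 other P450 enzymes was called in either direction.

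Nqo1 encodes a quinone reductase that the aryl hydrocarbon receptor and NRF2, the regulator of antioxidant enzymes, are known to induce. It read 41.6 and 69.3 without and 55.6 and 50.6 with tBuHQ. Its difference of -0.02 ± 0.28 (adjusted p = 0.977) changed sign with the normalization. The 30 tested NRF2 targets ranged from -1.71 to 0.71. Of these, the redox protein Txn1 rose (0.71 ± 0.17, adjusted p = 0.0358) and Pgd, of the pentose phosphate pathway, fell (-1.09 ± 0.27, adjusted p = 0.0365). On the untreated knockout arrays Txn1 read 9516 and 8736, against 9721 and 9069 on the treated wild-type arrays. None of 7 aryl hydrocarbon receptor genes was called, among them Cyp1a2, which stood at 0.24 ± 0.24 with tBuHQ and at -0.12 after quantile normalization over all arrays.

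Some stress genes rose and most did not pass. Ddit3, which encodes CHOP, read 95.4 and 107 without and 251 and 432 with tBuHQ, a difference of 1.57 ± 0.33 (adjusted p = 0.0213). Its groups did not overlap, but the untreated knockout arrays, at 248 and 321, also lay above both untreated wild-type arrays. Another probe set of Ddit3 stood at 0.43. Gadd45a, a growth arrest gene, read 258 and 251 without and 593 and 1378 with tBuHQ, and 873 and 827 on the untreated knockout arrays. Of 31 tested ISR targets these 2 rose, the phosphatase gene Dusp16 fell (-1.10 ± 0.24), and the list median was 0.14. Asns, asparagine synthetase, read 282 and 333 without and 825 and 671 with tBuHQ, above all 6 other unfractionated arrays, and did not pass (1.24 ± 0.47, adjusted p = 0.146). Atf4 stood at 0.70 ± 0.26 (adjusted p = 0.138) and the pseudokinase gene Trib3 at 0.32 ± 0.33 (adjusted p = 0.623).

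Of 22 ER chaperones and ATF6 targets, Creld2, an ER protein with disulfide isomerase activity, rose and none fell. Creld2 read 296 and 338 without and 608 and 2345 with tBuHQ. Both treated arrays were higher than the other 6 unfractionated arrays, yet they differed from each other, and the difference of 1.87 ± 0.46 (adjusted p = 0.0377) was 0.91 without the second tBuHQ array. Hspa5, the main ER chaperone BiP, showed the same imbalance, with 5039 and 5518 without and 4981 and 9414 with tBuHQ. It did not pass (0.38 ± 0.25, adjusted p = 0.420). Dnajb9, an ER co-chaperone, rose (1.15 ± 0.30, adjusted p = 0.0422) and Edem3, of ER-associated degradation, fell (-1.45 ± 0.31) among 38 genes of translocation, degradation and XBP1. Herpud1 stood at 0.92 ± 0.31 (adjusted p = 0.109) and Xbp1 at 0.33 ± 0.31 (adjusted p = 0.585).

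Of the 3 sensor genes, those of IRE1 and ATF6 fell, and Eif2ak3, of PERK, was not called (0.30 ± 0.35, adjusted p = 0.657). Ern1, which encodes IRE1, read 463 and 558 without and 115 and 163 with tBuHQ. Atf6 read 138 and 159 without and 42.4 and 43.4 with it. Both fell (-1.78 ± 0.38, adjusted p = 0.0233, and -1.48 ± 0.35, adjusted p = 0.0337), the only calls among 18 sensors, eIF2 kinases and phosphatase subunits, of which 10 had a positive and 8 a negative difference (median 0.18). The highest of the other 3 probe sets of Ern1 stood at 0.34. The untreated knockout arrays were low as well, at 133 and 119 for Ern1 and 50.7 and 63.1 for Atf6.

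Among 16 tested genes of a list on calcium stores, pumps and channels none was called, 13 had a negative difference and the median was -0.27. Of 12 mRNAs that IRE1 is known to cleave, the antigen-loading gene Tapbp and Pdgfrb fell. Tapbp went from 963 and 969 to 413 and 339 (-1.33 ± 0.29, adjusted p = 0.0246). It read 315 and 292 on the untreated knockout arrays. Of 24 heat shock genes the cytosolic chaperone Hspa8 rose from 5476 and 5462 to 10122 and 10057 (0.88 ± 0.23, adjusted p = 0.0422), and none fell. Hspa8 read 11390 and 8643 on the untreated knockout arrays, 1 above and 1 below both treated wild-type arrays. Of 26 p53 targets and apoptosis genes, the death agonist Bid (-1.17 ± 0.25) and the p53 target Zmat3 fell and none rose.

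Mt1 and Mt2 encode metallothioneins, small proteins that bind zinc and are induced by metals and stress. Their promoters and that of Creld2 are shown because these 3 genes rose and carry elements known for metal and ER stress induction. The windows are RefSeq sequences of GRCm38.p6, from 250 bases before to 50 bases after the gene start. For Mt1 (chr8:94178839-94179138, plus strand) and Mt2 (chr8:94172368-94172667, plus strand) capitals mark the metal response element, searched as TGCACNC or TGCGCNC on both strands. For Creld2 (chr15:88819396-88819695, plus strand) they mark the ER stress element, searched as the letters CCAAT, any 9 bases and CCACG on both strands.
Mt1: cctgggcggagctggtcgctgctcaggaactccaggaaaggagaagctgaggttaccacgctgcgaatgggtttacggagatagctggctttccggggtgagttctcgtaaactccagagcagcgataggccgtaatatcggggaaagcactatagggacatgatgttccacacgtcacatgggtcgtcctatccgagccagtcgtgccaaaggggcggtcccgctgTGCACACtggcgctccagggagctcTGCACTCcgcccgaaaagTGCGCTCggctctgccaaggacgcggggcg
Mt2: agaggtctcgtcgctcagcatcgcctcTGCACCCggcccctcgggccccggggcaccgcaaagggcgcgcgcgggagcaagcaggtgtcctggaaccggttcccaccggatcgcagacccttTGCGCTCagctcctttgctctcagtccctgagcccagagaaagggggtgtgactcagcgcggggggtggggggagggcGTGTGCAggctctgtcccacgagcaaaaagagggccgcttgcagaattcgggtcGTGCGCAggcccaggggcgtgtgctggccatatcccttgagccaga
Creld2: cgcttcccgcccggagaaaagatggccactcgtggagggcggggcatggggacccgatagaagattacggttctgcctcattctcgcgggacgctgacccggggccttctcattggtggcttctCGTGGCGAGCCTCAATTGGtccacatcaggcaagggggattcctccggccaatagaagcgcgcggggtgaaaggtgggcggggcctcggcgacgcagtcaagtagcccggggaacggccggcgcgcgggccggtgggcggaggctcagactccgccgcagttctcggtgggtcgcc
The Mt1 window held 3 metal response elements and the Mt2 window 4, and 25.7% of 32851 promoter windows held at least 1. The ER stress element was in the Creld2 window and in 0.119% of these windows. The counts that follow are of genes with the element in any of their windows, so they do not compare with the shares of windows. Of the risen genes 38 had a window, of which 16 held a metal response element and 1 an ER stress element. Of the fallen genes 390 had a window, of which 177 held a metal response element and 1 an ER stress element, so the metal response element is not particular to the risen genes.

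Mt1 read 1885 and 1848 without and 9707 and 7832 with tBuHQ, a difference of 2.21 ± 0.41 (adjusted p = 0.0149). Mt2 read 717 and 1246 without and 4221 and 4007 with it (2.10 ± 0.41, adjusted p = 0.0179). The other probe set of Mt1 stood at 0.17. The untreated wild-type arrays were lowest for both genes, and the knockout arrays read 4933 to 7916 for Mt1 with or without tBuHQ. Of 21 genes of metallothioneins and zinc handling, 3 zinc transporters fell, Slc30a1 (-1.45 ± 0.37), Slc30a7 (-1.48 ± 0.33) and Slc39a9 (-1.31 ± 0.29).

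Of 21 tested clock genes, which keep daily rhythm, and their outputs, 3 rose, 3 fell and 15 were not called (median 0.03). Dbp, a rhythmic transcription factor, read 60.8 and 45.3 without and 1200 and 284 with tBuHQ (3.14 ± 0.76, adjusted p = 0.0356). The repressors Nr1d1 (2.05 ± 0.55, adjusted p = 0.0483) and Nr1d2 (1.33 ± 0.25, adjusted p = 0.0160) rose with it, while the activators Clock (-1.56 ± 0.30) and Rora (-1.64 ± 0.34) and the repressor Nfil3 (-1.11 ± 0.27) fell. On the untreated knockout arrays Dbp read 1719 and 538 and Nr1d1 520 and 369, above both untreated wild-type arrays. The sources used here do not state the time of day of perfusion.

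Among signalling genes the chemokine Cxcl9 rose from 79.1 and 76.5 to 640 and 290 (2.25 ± 0.33, adjusted p = 0.0129). The transcription factor Myc rose from 100.2 and 172 to 413 and 417 (1.54 ± 0.29, adjusted p = 0.0164), and Foxq1, a forkhead factor, from 93.2 and 129 to 437 and 497 (1.94 ± 0.40, adjusted p = 0.0211). For these 3 genes both tBuHQ arrays were above the 6 other unfractionated arrays. Maff, a small Maf factor, read 6.88 and 16.1 without and 73.5 and 124 with tBuHQ, at least 6.14-fold higher, and 115 and 90.3 on the untreated knockout arrays. Maff and Myc were the called members of 42 immediate early genes, of which 32 had a positive difference, against 47.9% of all tested genes. The ligand gene Wnt7b (at least 4.22-fold) and the hexokinase-like Hkdc1 (at least 3.26-fold) rose from signals near or below the absent level, as did Ubqlnl (at least 3.40-fold), and Wdr53 rose by 1.58 ± 0.36.

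**Figure D1:**
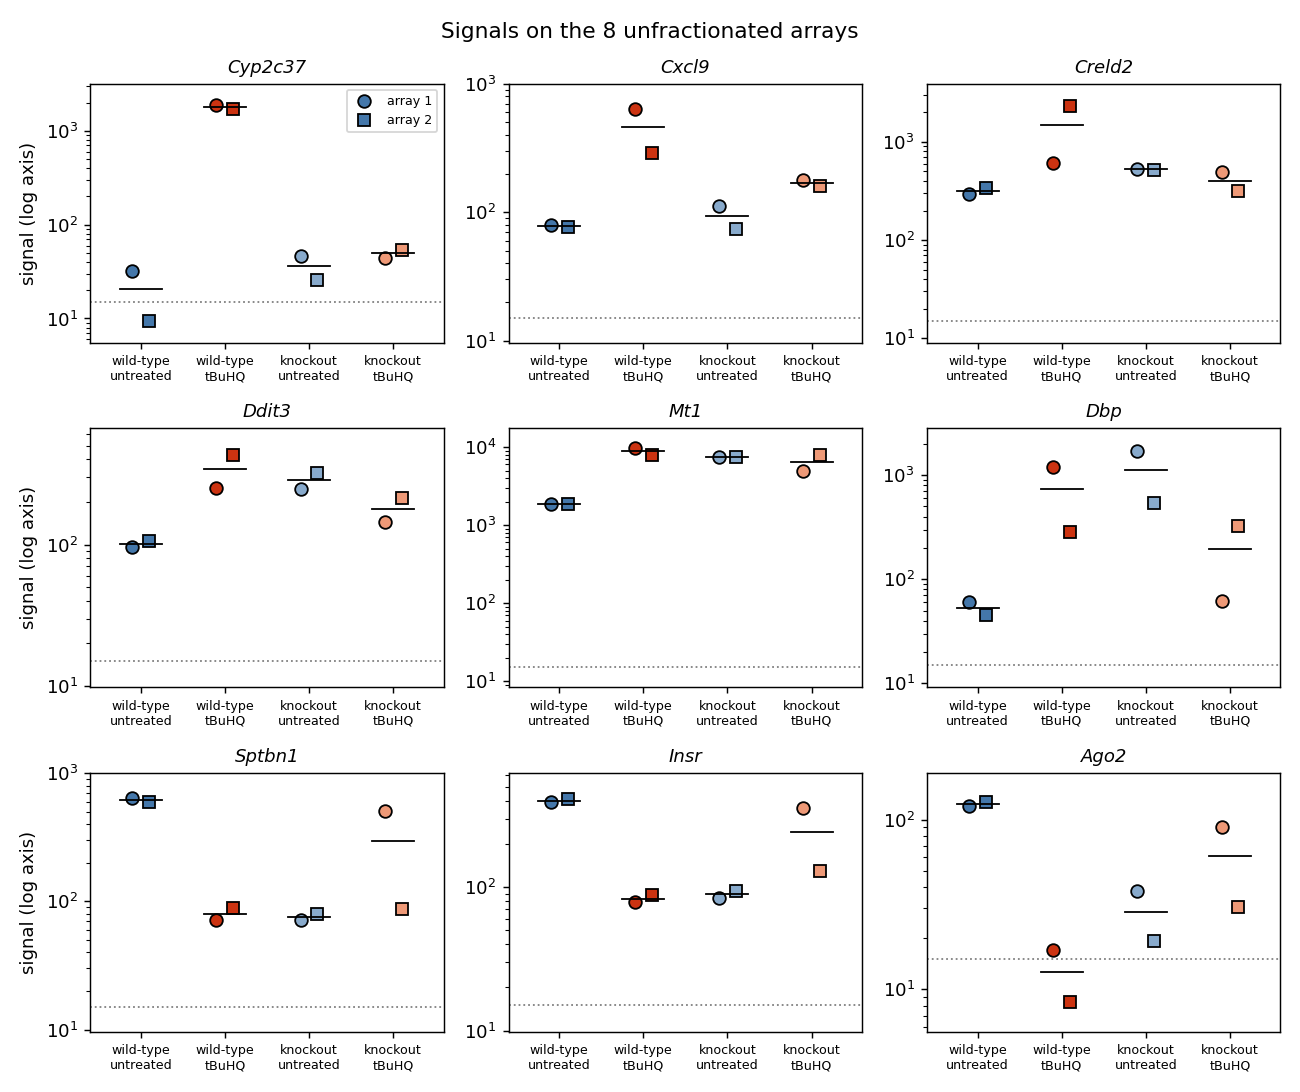
Signal of 9 genes on the 8 unfractionated arrays, on a log axis, with a circle for the first and a square for the second array of each group, a line at the group mean and a dotted line at the highest absent spike-in signal of 15.1. Cyp2c37 and Cxcl9 were highest on both wild-type tBuHQ arrays, whereas Mt1 and Dbp were also high, and Sptbn1 and Insr also low, on the untreated knockout arrays.

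Abundant messages of the mitochondrion, ribosome and proteasome shared a small positive difference with few calls. Over all tested genes 47.9% were positive, and the brightest of 5 bins of mean signal had a median of 0.24. How much of the difference belongs to bright genes at large was not tested. All 76 tested subunits of oxidative phosphorylation had a positive difference, with a median of 0.53, and 1 was called, Uqcrb of complex III (0.58 ± 0.15, adjusted p = 0.0442). Of 76 mitochondrial ribosomal proteins 73 were positive (median 0.44) and Mrpl41 was called (1.10 ± 0.27). Of 43 cytosolic ribosomal proteins 41 were positive (median 0.44) and none was called, and of 40 proteasome subunits 37 were positive (median 0.39) and none was called. In knockout unfractionated RNA the medians of these 4 lists were -0.24, -0.39, -0.20 and -0.24, and after quantile normalization over all arrays those of wild-type unfractionated RNA were 0.19, 0.39, 0.10 and 0.21. Alb, albumin, read 16039 and 16222 without and 23400 and 22518 with tBuHQ and did not pass (0.51 ± 0.16, adjusted p = 0.0773). Of 53 plasma protein genes the apolipoprotein Apoc3 rose (0.63 ± 0.15, adjusted p = 0.0298) and the inter-alpha-trypsin inhibitor chain Itih1 fell (-1.08 ± 0.24).

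The 470 genes that fell were spread over many roles. Sptbn1, a spectrin of the membrane skeleton, fell most among genes with a symbol other than a clone name. It went from 643 and 591 to 71.2 and 89.0 (-2.72 ± 0.52, adjusted p = 0.0169). Its other 2 probe sets stood at -1.64 and -0.06. Over all tested genes 3.87% fell and 47.9% had a positive difference. Of 48 genes of the cytoskeleton and cell adhesion 12 fell, with a list median of -0.78, and 44 of the 48 had a negative difference. With the mean of all probe sets 3 of them fell, and 7 after quantile normalization over all arrays. The receptor phosphatases Ptprf (970 and 1028 to 187 and 190), Ptprg and Ptprj were among them. Eppk1, which encodes the linker epiplakin, read 95.5 and 93.9 without and 0.968 and 13.6 with tBuHQ, at least 6.28-fold lower. The groups of each of these genes were far apart, but the untreated knockout arrays read close to the treated wild-type ones, with 71.4 and 79.5 for Sptbn1.

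Several receptors for growth factors and cytokines fell in wild-type liver. Insr, the insulin receptor, read 393 and 408 without and 78.1 and 87.4 with tBuHQ (-2.08 ± 0.35, adjusted p = 0.0136). Egfr, the receptor of epidermal growth factor, read 1746 and 1756 without and 420 and 333 with it. The insulin receptor substrate Irs1 (-1.46 ± 0.26), the kinase Braf (-1.55 ± 0.34) and the exchange factor Sos1 (-1.11 ± 0.23) fell too, so that 6 of 36 genes of this list fell, with a median of -0.81. When either the first knockout tBuHQ array or the second wild-type tBuHQ polysome array was left out of the fit 14 of the 36 fell, and with the mean of all probe sets 1 did. The other probe set of Insr stood at 0.20, and the other 5 of Egfr ranged from -1.94 to 0.44. Il6st, the gp130 subunit shared by interleukin 6 receptors, fell from 845 and 817 to 148 and 104 (-2.59 ± 0.56, adjusted p = 0.0240). It read 90.4 and 59.0 on the untreated knockout arrays. With Ptpn11, Socs7 and Stat3 it made 4 of 33 genes of gp130 and JAK-STAT signalling. Of 33 genes of TGF-beta, BMP and Notch signalling 7 fell, or 3 after quantile normalization over all arrays and 2 with the mean of all probe sets, among the 7 the receptors Bmpr2 (-2.12 ± 0.43), Tgfbr1, Tgfbr2 and Notch2.

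Some regulators of RNA fell as well. Rc3h2, a roquin that marks mRNA for decay, had the smallest p of the fallen genes named here, with 315 and 346 without and 46.3 and 46.0 with tBuHQ (-2.48 ± 0.30, adjusted p = 0.00382). Its relative Rc3h1 fell by 1.29 ± 0.27 on the log2 scale. The Argonaute genes Ago1 (153 and 150 to 29.2 and 20.4) and Ago2 (120 and 127 to 17.1 and 8.37, at least 7.69-fold), which carry microRNAs, and Cpeb4, which binds mRNA tails, were others of the 8 that fell among 50 genes of mRNA decay (median -0.57), of which 4 fell with the mean of all probe sets. For Rc3h2, Ago1, Ago2 and Cpeb4 both treated arrays were below the 6 other unfractionated arrays.

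Of 42 transcription coregulators 11 fell, with a median of -0.64, but 5 did after quantile normalization over all arrays and 0 with the mean of all probe sets. They included the kinases Hipk2 (344 and 399 to 27.7 and 69.1) and Hipk3, the coactivators Ncoa1 and Ncoa2 and the corepressor Nrip1. Of 33 hepatocyte transcription factors 7 fell, among them Rxra, the partner of many nuclear receptors (576 and 636 to 131 and 126), Ppara, the fatty acid receptor (-1.57 ± 0.34), Onecut2, Zbtb20 and the oestrogen receptor Esr1. Of 55 ubiquitin ligases and deubiquitinases 10 fell, among them Huwe1, Mib1, Xiap, Usp24 and Fbxw11, while 3 did after quantile normalization over all arrays and 0 with the mean of all probe sets. Of 60 chromatin genes 56 had a negative difference (median -0.61). The 2 that fell were Baz2a and Kdm2b, a share near the 3.87% of all tested genes. The number that fell was 12 without the second wild-type tBuHQ polysome array and 10 without the first knockout tBuHQ array. It was 0 with the mean of all probe sets or after quantile normalization over all arrays. Among 46 splicing factors none was called and the median was 0.12. With the mean of all probe sets 1 hepatocyte transcription factor, 0 genes of gp130 signalling, 2 endothelial and 1 stellate cell markers fell. In the same setting 0 genes of the ATF4 and CHOP, ER chaperone, heat shock, NRF2 and clock lists rose, and 1 metallothionein or zinc gene did.

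Genes of lipid synthesis, which the factors SREBP1 and SREBP2 drive, were among those that fell. Acetyl-CoA enters this pathway through Acly and Acss2, and Acly read 4745 and 4823 without and 1883 and 1782 with tBuHQ. Fasn, fatty acid synthase, read 2269 and 2289 without and 647 and 434 with it (-2.07 ± 0.34, adjusted p = 0.0136). Acss2, Acacb and the acyltransferase Gpam were the others of 5 that fell among 24 lipogenic genes (median -0.76). Of 25 cholesterol genes 5 fell, namely the sterol sensor Scap (-1.77 ± 0.29), the synthesis enzymes Lss, Dhcr7 and Hsd17b7 and the exporter Abca1 (median -0.39). With the mean of all probe sets 2 genes of each list fell. For Acly, Acss2, Fasn, Lss and Scap both treated arrays were below the 6 other unfractionated arrays, as for 6.33% of all tested genes. For Acacb, Gpam, Dhcr7, Hsd17b7 and Abca1 they were not. The untreated knockout arrays read 312 and 391 for Abca1, against 409 and 487 on the treated wild-type arrays. For Gpam they read 444 and 477, against 501 and 464. In wild-type polysome RNA the difference was -0.38 for Acly, -0.90 for Acss2, -0.82 for Fasn, -1.02 for Lss and 0.10 for Scap, none called. It was -0.13 for Dhcr7, -0.20 for Hsd17b7 and 0.55 for Abca1. The polysome medians of the lipogenic and cholesterol lists were -0.30 and -0.13. In carbohydrate metabolism the glycogen-targeting subunits Ppp1r3b (-1.79 ± 0.29) and Ppp1r3c (-1.64 ± 0.30) fell, while Ugp2, which makes UDP-glucose, and the glycolytic regulator Pfkfb3 rose.

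Further large falls came from single genes of diverse roles. H6pd, a dehydrogenase of the ER lumen, read 1121 and 1106 without and 181 and 198 with tBuHQ (-2.46 ± 0.46, adjusted p = 0.0150). Deptor, an inhibitor of the kinase mTOR, read 1354 and 1742 without and 288 and 356 with it (-2.21 ± 0.35, adjusted p = 0.0136). For Deptor, and for the heparan sulfatase Sulf2 (421 and 250 to 62.7 and 52.3), both treated arrays were below the 6 other unfractionated arrays. The desaturase-like Fads6 fell from 839 and 1088 to 167 and 136. Ece1, the endothelin-converting enzyme gene, fell from 414 and 568 to 90.5 and 89.8. Both treated arrays were below the 6 others for Ece1 too, but not for H6pd and Fads6. The untreated knockout arrays read 154 and 198 for H6pd and 132 and 150 for Fads6.

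Some markers of sinusoidal endothelium and stellate cells fell, while most macrophage markers had a positive difference. Of 19 markers of sinusoidal endothelium 4 fell, the phosphatase Ptprb (460 and 446 to 38.8 and 82.8), the VEGF receptors Flt1 and Flt4 and the TGF-beta coreceptor Eng. The summed signal of the 20 markers on the array was 4233 and 5017 without and 2620 and 2754 with tBuHQ. Of 15 stellate cell markers 5 fell, the matrix protein gene Reln (587 and 578 to 92.9 and 113), Pdgfrb, Lrat of retinoid storage, Col14a1 and Rgs5. The stellate sum was 7579 and 7110 without and 6312 and 6128 with it. Of 17 macrophage markers only the receptor Csf1r fell, while 12 had a positive and 5 a negative difference (median 0.35). The sum of the 18 macrophage markers on the array was 7209 and 7364 without and 10050 and 6209 with tBuHQ. No one of 10 markers of the pancreas was called, although all 10 were positive (median 2.12), with sums of 1926 and 1645 without and 7320 and 2888 with tBuHQ. The part of these cell types in the results was not tested.

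**Figure D2:**
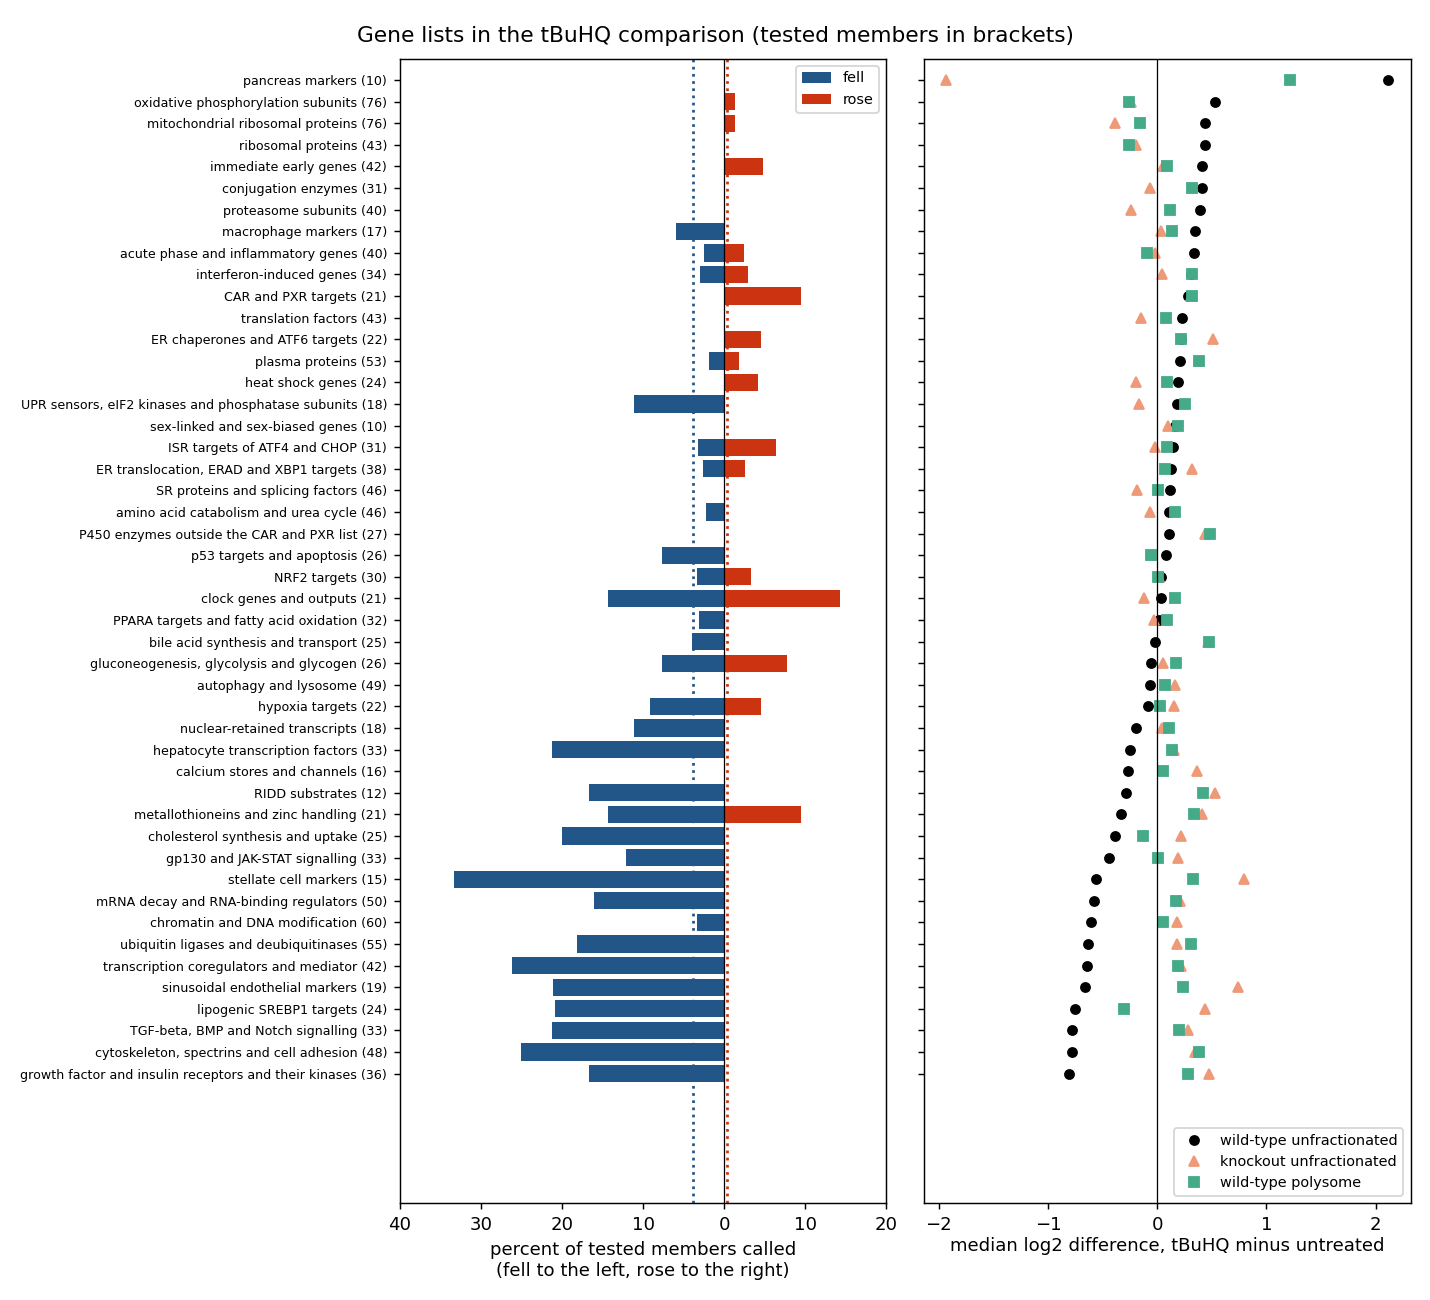
Gene lists with at least 10 tested members, ordered by their median difference. The left panel gives the percent of tested members that fell (blue, to the left) or rose (red, to the right), with dotted lines at 3.87% and 0.411%, the shares over all tested genes, and the right panel gives list medians in 3 comparisons; lists with the lowest medians in wild-type unfractionated RNA mostly had positive medians in the other 2.

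The fallen genes included many long genes. Their median length in the genome (GRCm38.p6) was 61.0 kb, against 7.91 kb for the risen genes and 22.4 kb for the tested genes. In 5 bins of equal number from short to long, 0.824%, 1.36%, 2.68%, 5.23% and 9.19% of the genes fell, while the share that rose went from 0.989% to 0.0824%. The median difference over these bins went from 0.22 to -0.32 in wild-type unfractionated RNA. In knockout unfractionated RNA it went the other way, from -0.13 to 0.16, and so it did in wild-type polysome RNA, from -0.08 to 0.14. Genes of low signal are less often called, yet the fallen share was highest, at 6.67%, in the fourth of 5 bins of mean signal.

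**Figure D3:**
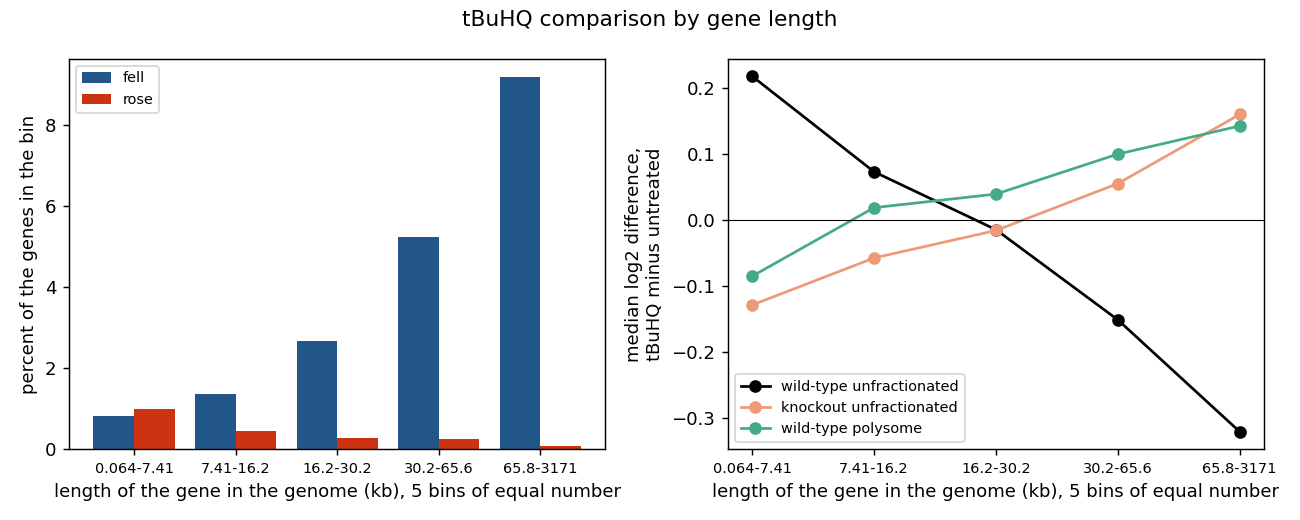
Genes in 5 bins of equal number by length in the genome, in kb. The left panel gives the percent of each bin that fell or rose with tBuHQ in wild-type unfractionated RNA. The right panel gives the median log2 difference, which fell from 0.22 to -0.32 in wild-type unfractionated RNA. It rose from -0.13 to 0.16 in knockout unfractionated RNA and from -0.08 to 0.14 in wild-type polysome RNA.

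Other probe sets of the same genes gave a second reading. Of the fallen genes 324 had other probe sets above the filter, 658 in all, and 594 of these were negative and 59 were called lower. Of the risen genes 20 had 28 other probe sets, of which 20 were positive and 1 was called higher. No other probe set was called in the opposite direction. Some were far from the probe set tested. Other probe sets ranged from -2.90 to -0.0047 for Hipk2, from -2.34 to -0.09 for Ptprb and from -2.19 to -1.98 for Ptprf. They ranged from -1.48 to 0.25 for Acly and from -0.27 to 0.42 for Ptpn11. The other probe set stood at -0.64 for Rc3h2 and at -0.45 for Rxra. When every probe set was fitted on its own, 27 of 34945 rose and 272 fell.

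At most of the fallen genes the untreated knockout livers, which received no tBuHQ, read nearer to the treated than to the untreated wild-type livers. For 414 and 416 of the 470 genes the 2 untreated knockout arrays lay on the treated side of the midpoint between the wild-type groups. The first knockout tBuHQ array lay on the untreated side for 425 and the second on the treated side for 394. The wild-type arrays that set this midpoint also made the calls, and the shares over all tested genes were not counted. The counts by side therefore describe the called genes only and are no separate evidence of a resemblance between the livers. Both wild-type tBuHQ arrays lay below all 6 other unfractionated arrays for 150 of the 470 fallen genes and above all 6 for 27 of the 50 risen genes. Over all tested genes these shares were 6.33% and 5.21%, and nothing is read from them for genes chosen by the same arrays.

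**Figure D4:**
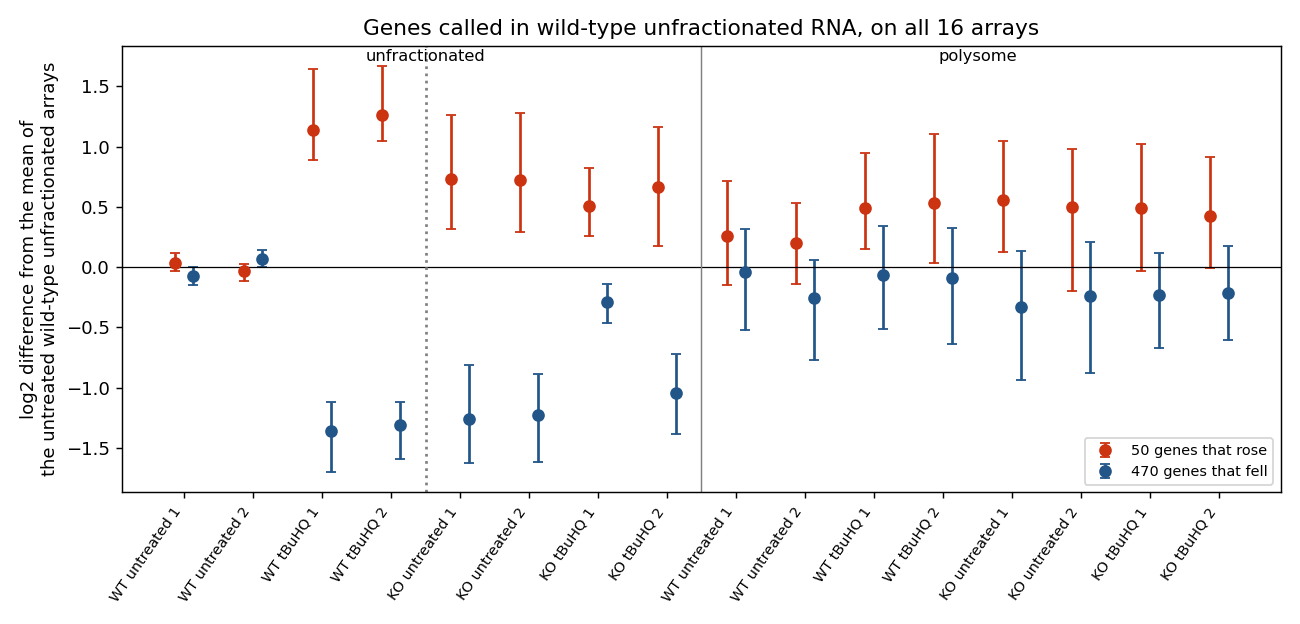
Median (point) and quartiles (bars) of the log2 difference from the mean of the untreated wild-type unfractionated arrays, for the 50 genes that rose (red) and the 470 that fell (blue), on each of the 16 arrays, with WT for wild-type and KO for knockout. The medians of the fallen genes were -1.26 and -1.23 on the untreated knockout arrays, close to the -1.36 and -1.31 on the wild-type tBuHQ arrays, and near the untreated level on the first knockout tBuHQ array.

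The change with tBuHQ was tested for a difference between genotypes, as knockout change minus wild-type change. It differed for 643 genes (5.29%), among them 22 of the 50 risen and 360 of the 470 fallen genes. Without the first knockout tBuHQ array, 1 of the 3 that stood apart, 90 genes differed, and without the second untreated wild-type array 0 did, with 1836 at an unadjusted p under 0.05. These comparisons share the wild-type arrays, so the counts are not separate evidence. For Ddit3 the difference was -2.20 ± 0.46 (adjusted p = 0.0158) and for Insr it was 3.22 ± 0.50 (adjusted p = 0.00727), while for Creld2 it was -2.28 ± 0.66 and did not pass (adjusted p = 0.0569). In knockout unfractionated RNA alone limma called 0 genes, with 1012 (8.33%) at an unadjusted p under 0.05. The Insr signal there was 84.4 and 94.5 without and 354 and 130 with tBuHQ, so that 1 of the 2 treated arrays carried most of the change.

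In polysome RNA of wild-type liver, mRNA engaged by several ribosomes, 2 genes were called (0.0165%) and 1139 had an unadjusted p under 0.05 (9.37%). The 2 were Cyp2c37 and Nr1d2, and both were also risen in unfractionated RNA. Cyp2c37 read 16.6 and 15.2 without and 1754 and 464 with tBuHQ on the polysome arrays. Nr1d2 read 388 and 375 without and 1307 and 1642 with it. Of the 50 risen genes 33 had a positive polysome difference (median 0.26), and of the 470 fallen genes 154 had a negative one (median 0.14), while the median of all tested genes was 0.05. Insr read 355 and 206 without and 380 and 329 with tBuHQ on polysome arrays, so that its fall was not seen there. The second wild-type tBuHQ polysome array had a Gapdh ratio of 5.60, against 0.735 to 0.859 on the other 15 arrays, and without it 114 genes rose and 741 fell in unfractionated RNA.

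Leaving out 1 of the 4 arrays leaves a group of 1, which limma then takes to vary like the other groups, so a lost call says little about stability. Without the first or the second untreated array, limma called 1 gene, Cyp2c37, higher and 0 lower, with 1977 and 1427 genes at an unadjusted p under 0.05. Without the first tBuHQ array 2 rose (Cyp2c37 and Creld2) and 1 fell (Ski), and without the second 4 rose and 10 fell. Ski, a repressor of TGF-beta signalling, read 61.0 and 3.94 with tBuHQ. The log2 difference of Cyp2c37 lay between 5.24 and 6.16 in the 4 cases. All 520 genes kept their sign in all 4. This had to be so, because the 2 groups of each did not overlap, and it is no evidence of stability.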

How the data were processed

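The deposited intensity values of 45101 probe sets on 16 Affymetrix arrays (8 groups of 2) were used on their linear scale. Judged by the values, the authors had scaled each array to a 2%-trimmed mean of 150, and no source used here names their summarisation software. The authors' deposited z score table was used to check the labels. Of the probe sets, 34958 had 1 gene symbol in the platform annotation, 932 several and 9211 none. A gene was represented by its brightest probe set on average, control probe sets and means under the 40th percentile (a signal of 16.4) were left out, and 12153 genes remained. In R 4.3.3, lmFit and trended eBayes of limma 3.58.1 fitted 8 group means to log2(signal + 16) over all 16 arrays, with 8 residual and 6.95 prior degrees of freedom and Benjamini-Hochberg adjustment over all genes. A script tested on simulated data ran the fit. Errors are standard errors with 2 arrays a group, which limits the precision. A group with an array at or under 15.1, the highest signal of absent spike-in RNAs, gives a bound. The named genes were the 15 largest increases and decreases without clone names, up to 5 called members of each gene list, a few stress genes and Alb, and members of lists of up to 8 tested genes. Members and lists were chosen with earlier results of these data known. Arrays with the same replicate number did not deviate together in every pair of groups, so the numbers were not used to pair arrays. A pairing of some groups is not excluded by this. By value, 4 of the 16 columns of the z score table also matched an array with another replicate number.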

Additional observations from a re-analysis of the deposited data

Results flagged for a closer look

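In 92 named genes the change with tBuHQ differed between genotypes in limma's test of the difference (knockout change minus wild-type change, adjusted p under 0.05), 14 with a negative and 78 with a positive log2 difference. The 3 arrays that stood apart include both untreated wild-type arrays and 1 of the 2 knockout tBuHQ arrays, and their part in these differences was not tested. The sizes of differences for genes with arrays near 15.1, such as Cyp2c37, Maff, Ubqlnl, Hkdc1, Eppk1, Flt1 and Pdgfrb, are fitted values and no exact measure.

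Negative differences were those of Dbp (-5.73), Cyp2c37 (-5.35), Ubqlnl (-2.64), Maff (-2.57), Mt1 (-2.45), Wdr53 (-2.36), Mt2 (-2.33), Ddit3 (-2.20), Hkdc1 (-2.0), Pfkfb3 (-1.90), Nr1d2 (-1.64), Myc (-1.62), Mrpl41 (-1.44) and Txn1 (-0.93).

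Among the genes with the largest falls the difference was 4.23 for Hipk2, 4.08 for Eppk1, 4.07 for Sptbn1 and Il6st, 3.69 for Ptprf, 3.66 for Fads6, 3.63 for Ptprb, 3.61 for H6pd and 3.38 for Reln. It was 3.21 for Rc3h2, 3.14 for Ece1, 3.09 for Deptor, 2.99 for Ago2, 2.96 for Egfr and 2.24 for Sulf2. In receptor signalling it was 3.49 for Bmpr2, 3.22 for Insr, 2.88 for Tgfbr2, 2.77 for Notch2, 2.55 for Braf, 2.35 for Socs7, 2.09 for Irs1 and Tgfbr1, 1.78 for Ptpn11 and 1.63 for Sos1. Of the phosphatases, Ptprg stood at 2.48 and Ptprj at 2.34. In lipid metabolism it was 3.21 for Gpam, 3.20 for Abca1, 3.06 for Acacb, 2.81 for Scap, 2.53 for Fasn and Dhcr7, 2.05 for Acss2, 1.86 for Lss and 1.47 for Acly. Other metabolic genes were Slco2b1 (3.06), Ppp1r3b (2.51), Chka (1.91), Itih1 (1.75), Pdk1 (1.72) and Sardh (1.57).

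Among transcription regulators the difference was 2.85 for Rxra, 2.75 for Zbtb20, 2.57 for Rora, 2.45 for Onecut2, 2.31 for Nrip1, 2.18 for Ncoa2, 2.14 for Ppara, 2.03 for Clock and Hipk3, 1.82 for Esr1, 1.66 for Ncoa1 and 1.42 for Baz2a. Among regulators of RNA and protein turnover it was 2.69 for Ago1, 2.19 for Cpeb4, 2.08 for Mib1, 1.86 for Huwe1, 1.68 for Rc3h1, 1.52 for Usp24, 1.44 for Son and 1.41 for Xiap. Stress and zinc genes were Ern1 (2.47), Slc30a1 (2.36), Slc30a7 (2.28), Tapbp (2.28), Atf6 (2.27), Edem3 (2.26), Slc39a9 (2.20), Icam1 (1.70) and Dusp16 (1.46). Markers of other cells were Flt1 (3.50), Flt4 (2.80), Pdgfrb (2.73), Col14a1 (2.42), Csf1r (2.32), Lrat (2.25) and Rgs5 (1.72).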

How the results depend on the processing

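The numbers of genes higher, lower and different between genotypes were 50, 470 and 643, and moved with the processing; causes were not tested. Genes higher numbered 33 with no filter, 255 from the 8 unfractionated arrays, 396 from the 4 wild-type unfractionated arrays, 305 with array weights, 16 with the mean of all probe sets and 114 without the second wild-type tBuHQ polysome array. Genes lower numbered 265 with no filter, 222 and 217 after quantile normalization over all arrays and within each fraction, 1087 from the 4 arrays, 1174 with array weights, 151 with the mean of all probe sets and 741 without that polysome array. Quantile normalization kept 50 and 51 genes higher, so the share of decreases among calls fell. Genotype differences numbered 408 and 421 after the 2 quantile normalizations, 1337 from the 8 arrays, 1288 with array weights, 332 with the mean of all probe sets and 1058 without that polysome array. Leaving out 1 unfractionated array gave 1 to 64 genes higher, 0 to 676 lower and 0 to 1174 different between genotypes. With a replicate block, which takes arrays of the same number as belonging together, 44 rose, 437 fell and 636 differed between genotypes. Pseudocounts of 1 and 64, a filter at the 60th percentile and no trend kept each count within 1.5 times.

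Of 145 named genes, the call was lost for 35 and 31 after the 2 quantile normalizations, for 81 with the mean of all probe sets, for 27 without either untreated knockout array and for 111 to 116 without 1 of the 4 wild-type arrays. Signs turned only among named genes that were not called. After quantile normalization over all arrays and within each fraction the log2 difference was 0.0154 and 0.0135 for Arnt, -0.12 and -0.11 for Cyp1a2, 0.19 and 0.18 for Nqo1, -0.24 and -0.23 for Tat, 0.15 and 0.15 for Tiparp and -0.0157 and -0.0194 for Ttr. With the mean of all probe sets it was -0.00389 for Eif2ak3 and -0.19 for Epcam, and with a pseudocount of 64 it was 0.0145 for S100a9. Leaving out 1 of the 4 arrays gave ranges of -0.36 to 0.65 for Epcam, -0.0819 to 0.83 for Hspa5, -1.01 to 0.43 for Krt19, -0.75 to 0.0292 for Mpo, -0.0721 to 0.48 for Ngp, -0.30 to 0.26 for Nqo1, -0.0480 to 0.30 for S100a8, -0.80 to 0.67 for S100a9 and -0.29 to 0.0627 for Tiparp. Signals near 15.1 limit what dim genes can show.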
